A study of Mus musculus with 2 samples.

Results

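The inhibitory checkpoint receptors described here are 6 receptors of T cells: Pdcd1 (encoding PD-1), Lag3, Havcr2 (encoding TIM-3), Ctla4, Tigit and Cd160. They were chosen by gene symbol, with earlier results of these data known, and are 6 of the 32285 genes counted. The study asked how natural killer (NK) cells affect CD8+ T cell differentiation in tumours of MC38, a colon carcinoma line of mice. It holds 1 single-cell library of live CD8+ T cells sorted from tumours of control mice and 1 from tumours of NK-depleted mice, both taken on day 9 after implantation. Both groups have the genotype WT. PBS is the treatment label of the control library, whose library name holds the abbreviation Iso. The NK-depleted library carries the label a-NK1.1 antibody, an antibody against an NK cell surface antigen. How many mice each library pools is not stated in the labels. With 1 library per group there is no spread between replicates, no test was run, and every interval below is a 95% interval that covers counting error only.

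A T cell that has met antigen puts these receptors on its surface, and each can dampen the signal of the T cell receptor when it binds its ligand on a neighbouring cell. Under lasting antigen, as in a tumour, CD8+ T cells can carry several at once, a state known as exhaustion. Antibodies that block PD-1, CTLA-4 or LAG-3 are used against cancer. A progenitor pool of exhausted cells keeps the transcription factor Tcf7, while Mki67 marks dividing cells and Gzmb encodes granzyme B, a killing enzyme of effector cells.

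The receptors were read in barcodes with at least 500 detected genes, a mitochondrial share below 10% and at least 1 UMI of a Cd3 gene (Cd3d, Cd3e, Cd3g) and of Cd8a or Cd8b1. A UMI, or unique molecular identifier, stands for 1 captured RNA molecule. The rule kept 6901 of 7866 control barcodes and 8164 of 10111 NK-depleted barcodes, with medians of 11444 and 12289.5 UMIs per cell. A level is given as CPM, the UMIs of a gene per 1000000 UMIs summed over these cells of a library. Shares of cells with a UMI depend on depth, so they were read after each cell had been thinned at random to 5500 UMIs, which left 6246 control and 7384 NK-depleted cells. The libraries share 391 barcode sequences, of which 151 control and 61 NK-depleted cells were in the population. Ncr1, which encodes an activating receptor of NK cells, had 33 UMIs over all control barcodes and 11 over all NK-depleted barcodes. Summed markers of other cells stood at 36.8 and 19.4 CPM for NK cells, 29.1 and 46.7 CPM for gamma delta T cells, 13.6 and 10.4 CPM for CD4 and regulatory T cells and 211 and 143 CPM for dendritic cells for control and NK-depleted cells. Most of the NK cell sum was Tyrobp, at 33.0 and 17.1 CPM and seen in 6.30% and 6.43% of cells. Klra8 of that list was higher in the NK-depleted library, at 0.169 and 0.359 CPM. Most of the CD4 and regulatory sum was Izumo1r, at 11.4 and 8.03 CPM, while Cd40lg stood at 1.32 and 1.88 CPM. All 4 NK cell, 5 gamma delta T cell, 4 CD4 and regulatory T cell and 6 dendritic cell markers were above 0 in the population, and their part in the receptor levels was not tested. Krt8 of the stromal and tumour list and Hbb-bs of the erythroid list were at 0. The markers of CD8+ T cells summed to 6070 and 5152 CPM.

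The 6 genes lie on 5 chromosomes of the mm10 build, all as protein-coding genes. Pdcd1 (ENSMUSG00000026285) spans 94038305 to 94052553 on the minus strand of chromosome 1. Ctla4 (ENSMUSG00000026011) spans 60887000 to 60915832 on the plus strand of the same chromosome and overlaps the processed pseudogene Rpl18-ps1. Lag3 (ENSMUSG00000030124) spans 124904361 to 124911705 on the minus strand of chromosome 6, and Havcr2 (ENSMUSG00000020399) spans 46454935 to 46481255 on the plus strand of chromosome 11. Tigit (ENSMUSG00000071552) spans 43648867 to 43664146 on the minus strand of chromosome 16. Cd160 (ENSMUSG00000038304) spans 96798763 to 96829351 on the minus strand of chromosome 3 and overlaps Pdzk1, a gene on the other strand. The sources used here do not state whether counting used strand, so Cd160 and Pdzk1 reads may not be fully separable.

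The promoters of 3 receptors are printed because Pdcd1 and Ctla4 had like levels across the classes of cells described below, while Havcr2 differed more between those classes. Each sequence runs 5′ to 3′ on the gene's own strand from 250 bases before to 50 after the annotated start, from RefSeq on GRCm38.p6. Windows were matched for 5 of the 6 receptors. Capitals mark matches, on either strand, to GGAAA, the core letters bound by NFAT factors downstream of the T cell receptor, or to TGANTCA, the letters bound by AP-1 factors. The Pdcd1 window is chr1:94052504-94052803 on the minus strand, the Ctla4 window chr1:60908775-60909074 on the plus strand and the Havcr2 window chr11:46454681-46454980 on the plus strand. RefSeq places the Ctla4 start at 60909025, inside the gene span given above, so the start of that span at 60887000 and the start of this window come from different annotations.
Pdcd1: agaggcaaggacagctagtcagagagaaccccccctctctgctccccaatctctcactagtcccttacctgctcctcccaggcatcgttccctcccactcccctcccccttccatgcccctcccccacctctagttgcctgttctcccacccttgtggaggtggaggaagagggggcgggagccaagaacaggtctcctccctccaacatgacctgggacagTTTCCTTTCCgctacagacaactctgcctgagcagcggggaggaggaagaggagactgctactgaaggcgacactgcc
Ctla4: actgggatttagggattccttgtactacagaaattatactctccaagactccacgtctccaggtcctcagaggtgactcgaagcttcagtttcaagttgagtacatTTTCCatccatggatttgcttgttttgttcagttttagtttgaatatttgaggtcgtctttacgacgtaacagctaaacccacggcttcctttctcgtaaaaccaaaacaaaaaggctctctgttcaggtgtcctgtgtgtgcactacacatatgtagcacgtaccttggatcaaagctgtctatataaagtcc
Havcr2: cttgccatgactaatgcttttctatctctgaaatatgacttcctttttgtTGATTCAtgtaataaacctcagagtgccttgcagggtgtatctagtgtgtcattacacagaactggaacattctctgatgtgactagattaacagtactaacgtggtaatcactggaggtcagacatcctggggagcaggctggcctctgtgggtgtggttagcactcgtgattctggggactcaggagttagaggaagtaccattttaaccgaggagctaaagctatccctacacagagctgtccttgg
The Pdcd1 window held 2 matches to GGAAA, next to each other, the Ctla4 window held 1 and the Tigit window held 2. The Havcr2 window held no match to GGAAA and 1 to TGANTCA. Of the Cd160 windows, at a pair of annotated starts, 1 held a GGAAA match and the other held none. No receptor window held CACGTG, the E-box letters. Among 32851 promoter windows of the same length, 61.3% held GGAAA, 7.81% held TGANTCA and 7.15% held CACGTG. The matches describe letters in these windows only, and the 5-base GGAAA is present in most promoters.

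In the library from NK-depleted mice, transcripts of Lag3, Ctla4, Tigit and, by a smaller margin, Pdcd1 were lower, while Havcr2 and Cd160 were nearly level. A gene was counted as lower past a limit, a ratio of NK-depleted over control of 0.8 or less, as higher past the inverse of that ratio, and as between otherwise. Of the 6 receptors, 3 were lower (Lag3, Ctla4 and Tigit), 0 were higher and 3 lay between. Among all 7624 genes that reached 10 CPM in 1 library, 11.9% were lower and 6.27% higher past the limit. That balance depended on the scaling. Under TMM scaling 7.07% of genes were lower and 10.6% higher, and under median-of-ratios scaling 6.68% were lower and 11.4% higher, while the same number of receptors, 3, was lower under each. The median log2 ratio was -0.38 over the 6 receptors and -0.06 over all genes. Tigit lay below the 10 CPM minimum of that gene set, and of the 5 receptors that passed it 2 were lower (Lag3 and Ctla4), 0 higher and 3 between. Without the barcodes that occur in both libraries the median over the receptors was -0.38.

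PD-1 binds PD-L1 and PD-L2 and recruits the phosphatase SHP-2 to dampen receptor signalling. Pdcd1 stood at 213 CPM in control and 179 CPM in NK-depleted cells, a ratio of NK-depleted over control of 0.840 (interval 0.824 to 0.855), or 1.19-fold lower. Its counting intervals did not overlap, yet the ratio did not pass the limit of 0.8.

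LAG-3 binds MHC class II and other ligands on neighbouring cells. Lag3 stood at 425 CPM in control and 282 CPM in NK-depleted cells, a ratio of 0.664 (0.655 to 0.673), or 1.51-fold lower. At equal depth 66.5% of control cells and 52.3% of NK-depleted cells had a Lag3 UMI, and cells with 6 or more Lag3 UMIs made up 10.2% and 6.58%. Both the number of cells with Lag3 and the molecules per positive cell (3.27 and 2.97) were thus lower in the NK-depleted library.

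CTLA-4 competes with the costimulatory receptor CD28 for their shared ligands CD80 and CD86. Ctla4 stood at 219 CPM in control and 155 CPM in NK-depleted cells, a ratio of 0.708 (0.695 to 0.722), or 1.41-fold lower. It was found in 56.1% of control cells and 44.0% of NK-depleted cells at equal depth.

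TIM-3 binds several ligands, galectin-9 among them, and marks terminally exhausted cells. Havcr2 stood at 134 CPM in control and 140 CPM in NK-depleted cells, a ratio of 1.04 (1.02 to 1.07). Cells with a Havcr2 UMI were more frequent in the NK-depleted library, 34.6% (interval 33.5 to 35.7) against 28.3% (27.1 to 29.4) at equal depth. The Havcr2 UMIs were less concentrated there, since the 10% of cells with the most held 54.6% of them, against 62.0% in the control library. Of the 6 receptors, Havcr2 alone was higher in the NK-depleted library both by share and by level, and the log2 ratio of levels ranged from 0.03 to 0.30 over the alternatives run.

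CD160 binds HVEM, the receptor that BTLA also binds, and is carried by some CD8+ T cells and NK cells. Cd160 stood at 99.8 CPM in control and 98.6 CPM in NK-depleted cells, a ratio of 0.988 (0.962 to 1.01). Its share at equal depth was 31.5% and 33.3%, opposite in order to the levels, so no order was read from it. The Cd160 ratio was above 1 with TMM or median-of-ratios factors, with the mean over cells in place of the sum, with thinned counts and without the cells richest in UMIs.

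TIGIT binds the poliovirus receptor, PVR, and competes with the activating receptor CD226. Tigit was close to the limit of detection, with 802 control UMIs (7.53 CPM) and 601 NK-depleted UMIs (4.80 CPM), a ratio of 0.637 (0.572 to 0.708). Of cells at equal depth, 3.95% of control and 2.42% of NK-depleted cells had a Tigit UMI, nearly always a single molecule.

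**Figure D1:**
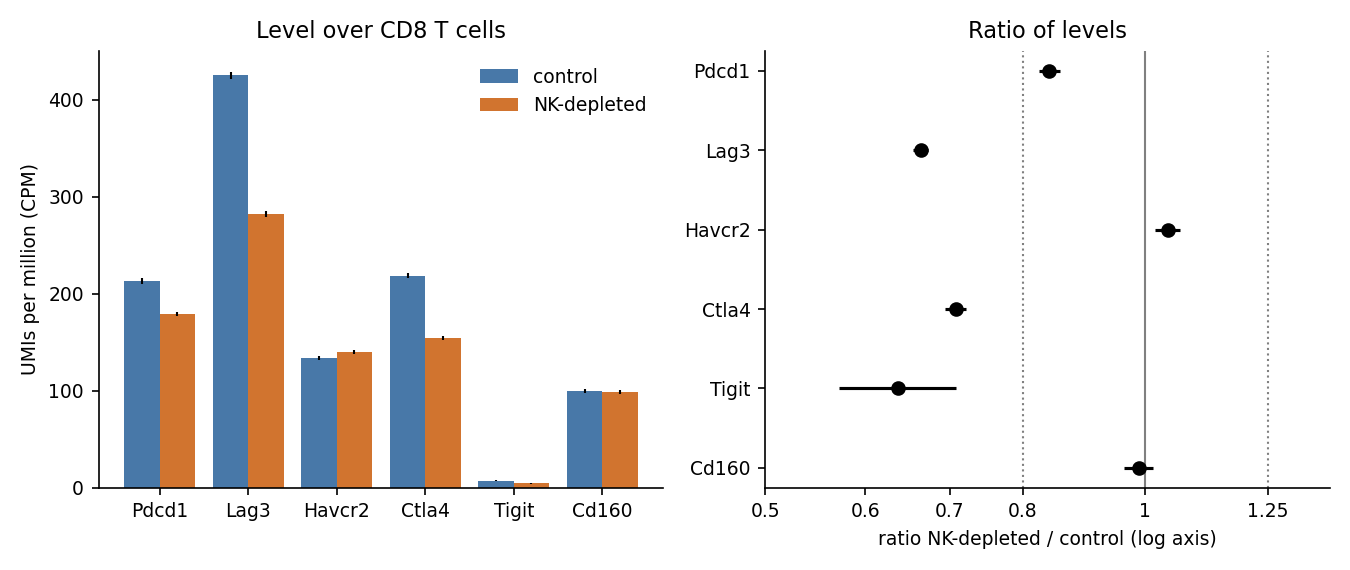
Levels of the 6 receptors over CD8+ T cells of the control and NK-depleted libraries in CPM (bars, with exact 95% Poisson intervals), and the ratio NK-depleted over control on a log axis (points, with exact conditional binomial 95% intervals). Dotted lines mark the limits, a ratio of 0.8 and its inverse. Lag3, Ctla4 and Tigit lie beyond the lower line, Pdcd1 at 0.840 lies inside it, and Havcr2 and Cd160 sit near 1.

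Free RNA in a droplet can give a UMI in a cell that does not express a gene, so the same shares were read in cells expected to carry few of these receptors. The naive reference was the 275 control and 355 NK-depleted cells with at least 4 of 6 naive or central memory markers at equal depth, with medians of 10179 and 9148 UMIs against 12406.5 and 13233.5 in all thinned cells. In these cells Pdcd1 was seen in 10.9% and 7.89%, Lag3 in 12.4% and 11.3%, Havcr2 in 3.64% and 5.07% and Cd160 in 9.09% and 12.4% of control and NK-depleted cells. Pdcd1, Lag3, Havcr2 and Cd160 were thus well above these shares in the whole population of both libraries. Ctla4 was seen in 22.5% and 16.6% of naive reference cells, also below its population shares. Tigit was seen in 2.55% (interval 1.03 to 5.17) and 0.845% (0.175 to 2.45), in 7 and 3 cells. These intervals hold the population shares of 3.95% and 2.42%. With so few cells, this reference can neither set Tigit detection apart from background nor show that it is background. Among plasmacytoid dendritic reference cells, 17 control and 11 NK-depleted barcodes outside the population, Cd160 and Tigit were seen in 0 and Pdcd1 in 0 and 2 cells. Lag3, which plasmacytoid dendritic cells are known to carry, was seen in 11 and 5 of them. A count of 0 among 17 cells allows a share of up to 19.5% (exact binomial), so this small reference sets no tight limit.

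Fewer of the receptors were detected per cell in the NK-depleted library. At equal depth the mean number of receptors with a UMI was 2.39 of 6 in control cells (SD over cells 1.41) and 2.12 in NK-depleted cells (SD over cells 1.45). The mean number is the sum of the 6 receptors' shares of cells with a UMI. Its gap thus restates the lower shares of Lag3, Ctla4, Pdcd1 and Tigit, less the higher shares of Havcr2 and Cd160. It is not a separate result on co-expression. Control cells without any receptor UMI made up 11.1% (interval 10.3 to 11.9), against 16.2% (15.4 to 17.1) in the NK-depleted library. The share of cells was 17.5% and 21.5% with 1 receptor, 23.2% and 20.8% with 2, and 24.1% and 21.1% with 3, for control and NK-depleted cells. Cells with 4 receptors made up 18.2% and 16.05%, and cells with 5 made up 5.76% and 4.16%. All 6 receptors were seen in 21 control cells (0.336%) and 10 NK-depleted cells (0.135%). Cells with 4 or more receptors made up 24.3% (23.2 to 25.3) and 20.3% (19.4 to 21.3). Without thinning the means were 3.10 and 2.92 and the shares with 4 or more were 45.6% and 44.1%, a gap of -1.48 percentage points with an interval from -3.08 to 0.12, so at full depth the gap in that class was within counting error. At equal depth the gap was -3.91 points, and it was -2.05 at 3000 UMIs, -6.56 at 8000 UMIs and -2.21 without cells holding markers of other cell types. Without the barcodes that occur in both libraries, the difference in mean number was -0.27, as it was with them.

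**Figure D2:**
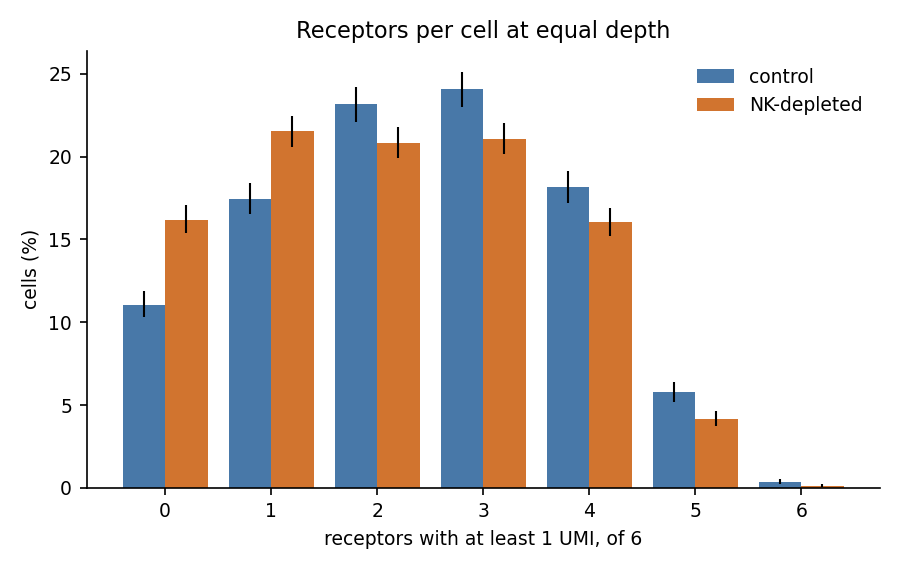
Share of CD8+ T cells (percent, with exact 95% binomial intervals) by the number of the 6 receptors with at least 1 UMI, after thinning each cell to 5500 UMIs. The NK-depleted library has more cells with 0 or 1 receptor and fewer in every class from 2 to 6.

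Cells without any of the receptors were more frequent than the separate shares of the receptors would give. The product of the shares of cells lacking each receptor was 3.25% in control and 6.18% in NK-depleted cells, against the 11.1% and 16.2% observed. Of 64 possible combinations, 61 were seen among control and 63 among NK-depleted cells, and in each library the 7 most frequent held at least 50% of cells. After the cells with none, the most frequent control combination was Pdcd1, Lag3 and Ctla4 together without the other receptors, in 9.17% (interval 8.47 to 9.92) of cells in the control and 4.69% (4.21 to 5.19) in the NK-depleted library. The same 3 receptors with Havcr2 were held by 8.07% (7.41 to 8.77) and 8.71% (8.07 to 9.37), nearly level. Cd160 on its own was seen in 3.39% (2.96 to 3.87) of cells in the control and 7.83% (7.23 to 8.46) in the NK-depleted library. The combination of Pdcd1, Lag3, Ctla4 and Cd160 was seen in 5.54% of control cells.

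The receptors other than Cd160 were found together in both libraries more often than the product of their shares. For each of the 15 pairs, the share of cells with both receptors was divided by the product of the receptors' shares. The quotient was above 1 for 15 pairs in the control library (1.06 to 1.52) and for 11 pairs in the NK-depleted library (0.921 to 1.50). It was not read for pairs of other genes, so these counts have no background share beside them. Tigit pairs rest on few cells. In the NK-depleted library Tigit was seen in 2.82% (2.21 to 3.54) of cells with Havcr2 and 2.22% (1.82 to 2.67) of those without. Lag3 was seen in 87.8% of control cells with a Havcr2 UMI and 58.1% of those without, and in 77.6% and 39.0% in the NK-depleted library. Pdcd1 was seen in 63.8% of control cells with Lag3 and 32.0% of those without, and in 63.4% and 26.2% in the NK-depleted library. The quotient of Pdcd1 with Havcr2 was 1.34 in control and 1.50 in NK-depleted cells. The 4 pairs not above 1 in the NK-depleted library all held Cd160. Their quotients were 0.984 with Pdcd1, 0.999 with Lag3, 0.987 with Ctla4 and 0.921 with Havcr2, against 1.08, 1.102, 1.06 and 1.13 in the control library. In the NK-depleted library Cd160 was seen in 30.7% (interval 28.9 to 32.5) of cells with Havcr2 and 34.7% (33.3 to 36.0) of those without, and in the control library in 35.5% (33.2 to 37.8) and 29.9% (28.6 to 31.3). Havcr2 with Cd160 kept below 1 in the NK-depleted library at 3000 and 8000 UMIs and with a second random seed, and it alone of the 5 Cd160 pairs stayed on its side of 1 under all 3. Lag3 with Cd160 was above 1 under each of them, from 1.01 to 1.07. Pdcd1 with Cd160 was at 1.02 at 3000 UMIs, Ctla4 with Cd160 at 1.01 with the second seed and Tigit with Cd160 at 0.954 at 8000 UMIs, so the side of 1 of these pairs is not fixed.

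**Figure D3:**
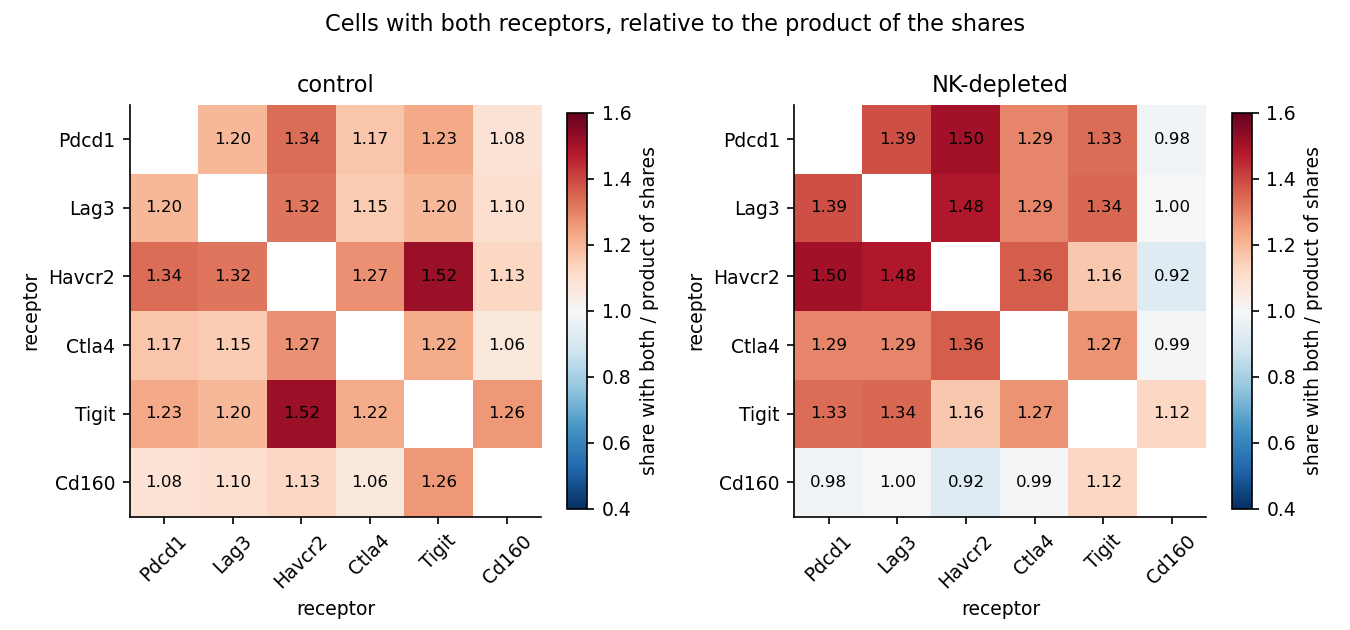
Share of cells with both receptors of a pair divided by the product of the receptors' shares, at 5500 UMIs per cell, for the control (left) and NK-depleted (right) libraries. Red marks pairs seen together more often than the product (above 1) and blue less often. The Cd160 row and column are above 1 in the control library and close to or below 1, except with Tigit, in the NK-depleted library.

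Cells with a UMI of Tcf7, the factor of progenitor and naive cells, had lower levels of the receptors in both libraries. They made up 1312 (21.0%) of control and 1596 (21.6%) of NK-depleted cells at equal depth. With the same limits set on the ratio of positive over negative cells, 6 of the 6 receptors were lower in Tcf7-positive control cells, against 18% of all genes, and 5 in Tcf7-positive NK-depleted cells, against 20.5% of all genes. The median log2 ratio over the receptors was -0.87 and -1.01, against -0.04 and -0.07 over all genes. Havcr2 stood at 43.8 CPM with and 157 CPM without Tcf7 in the control library, 3.58-fold lower, and at 43.3 and 161 CPM in NK-depleted cells, 3.71-fold lower. The fold depended on how cells were classed, and the control value was 2.28 with Tcf7 read from unthinned counts, 4.85 with 2 Tcf7 UMIs as the limit and 5.34 without cells holding other cell types' markers. The NK-depleted values were 2.42, 5.83 and 5.07. At equal depth, control cells with and without Tcf7 had means of 0.118 and 0.731 Havcr2 UMIs. NK-depleted cells had means of 0.149 and 0.857, and both gaps were wider than those in CPM. With unthinned counts 5 receptors in place of 6 were lower in the control library, as the Cd160 ratio was then 0.927. Lag3 stood at 209 and 480 CPM in control cells and at 117 and 318 CPM in NK-depleted cells. Pdcd1 stood at 119 and 236 CPM, and at 88.5 and 198 CPM. Each of the 3 was thus lower by 1.98-fold or more in Tcf7-positive cells of either library. Ctla4 stood at 143 and 236 CPM in control cells and at 92.2 and 167 CPM in NK-depleted cells, folds of 1.65 and 1.81. Tigit stood at 4.84 and 8.18 CPM, and at 3.09 and 5.13 CPM. Cd160 had the smallest folds of the 6, with 82.3 and 105 CPM in the control library and 91.7 and 101 CPM in NK-depleted cells, the latter 1.104-fold lower. The mean number of receptors was 1.41 in Tcf7-positive and 2.66 in Tcf7-negative control cells, and 1.14 and 2.39 in the NK-depleted library. Median depth was 10855 and 12901.5 UMIs in these control classes before thinning.

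In CPM, levels of the receptors were close in cells with and without Mki67, the marker of dividing cells. Of the 6 receptors, 0 were higher past the limit by CPM in Mki67-positive cells of either library, against 17.8% of all genes in the control and 19.6% in the NK-depleted library. None was lower past it, against 9.93% and 7.84% of all genes. Havcr2 came nearest, with 155 CPM with and 125 CPM without Mki67 in the control library, a ratio of 1.24 (1.20 to 1.28), and 152 and 130 CPM in NK-depleted cells, a ratio of 1.16 (1.13 to 1.20). Lag3 stood at 434 and 425 CPM in control cells and at 291 and 275 CPM in NK-depleted cells. Cd160 stood at 97.7 and 103 CPM, and at 90.3 and 108 CPM, so it was slightly lower with Mki67. Its NK-depleted ratio passed the limit without cells holding other cell types' markers (0.792) and with 2 Mki67 UMIs as the limit (0.779). In the control library the mean Havcr2 UMIs per cell at equal depth were 0.760 with and 0.550 without Mki67. In NK-depleted cells they were 0.846 and 0.626. Both Havcr2 gaps were wider than those in CPM and past the limit. Tigit in both libraries and Cd160 in NK-depleted cells were lower with Mki67 at equal depth. The number of receptors per cell at equal depth was higher with Mki67, a mean of 2.74 against 2.28 in the control library and 2.42 against 1.96 in the NK-depleted library. Mki67-positive control cells held a median of 19370 UMIs before thinning and Mki67-negative ones 11245.5, and the part of that gap in the shares was not tested. Mki67-positive cells made up 24.7% of control and 35.6% of NK-depleted cells.

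Cells with a UMI of Gzmb, the granzyme of effector cells, had more Havcr2 in both libraries. Past the limit, 4 of the 6 receptors were higher in Gzmb-positive cells of the control library, against 17.6% of all genes, and 4 in the NK-depleted library, against 19.8%. Pdcd1, Havcr2 and Ctla4 were among them in both libraries, joined by Tigit in the control and by Lag3 in the NK-depleted library. The control ratio of Ctla4, 1.26, was close to the limit, and several other cell filters put it at 1.23, within the limit. Havcr2 stood at 149 CPM with and 49.6 CPM without Gzmb in the control library, a ratio of 3.01 (2.79 to 3.25), and at 148 and 37.9 CPM in NK-depleted cells, a ratio of 3.89 (3.48 to 4.37). Pdcd1 stood at 221 and 165 CPM in control cells and at 184 and 102 CPM in NK-depleted cells, and Ctla4 at 225 and 178 CPM and at 158 and 97.9 CPM. Lag3 stood at 438 and 369 CPM in the control library, a ratio of 1.19, and at 290 and 176 CPM in NK-depleted cells, a ratio of 1.65. Cd160 alone was lower with Gzmb in both libraries, at 98.8 and 116 CPM and at 98.7 and 112 CPM. Gzmb UMIs were also seen in 38.5% of control and 67.0% of NK-depleted naive reference cells, so a cell with 1 Gzmb UMI need not express it. Cells with at least 5 Gzmb UMIs were therefore also set against cells with fewer. In the control library 2 receptors were then higher past the limit, against 8.29% of all genes, Havcr2 (ratio 2.08) and Tigit (1.26), the latter not set apart from background above. In the NK-depleted library 4 were, against 13% of all genes, with ratios of 1.65 for Pdcd1, 1.48 for Lag3, 3.01 for Havcr2 and 1.401 for Ctla4.

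**Figure D4:**
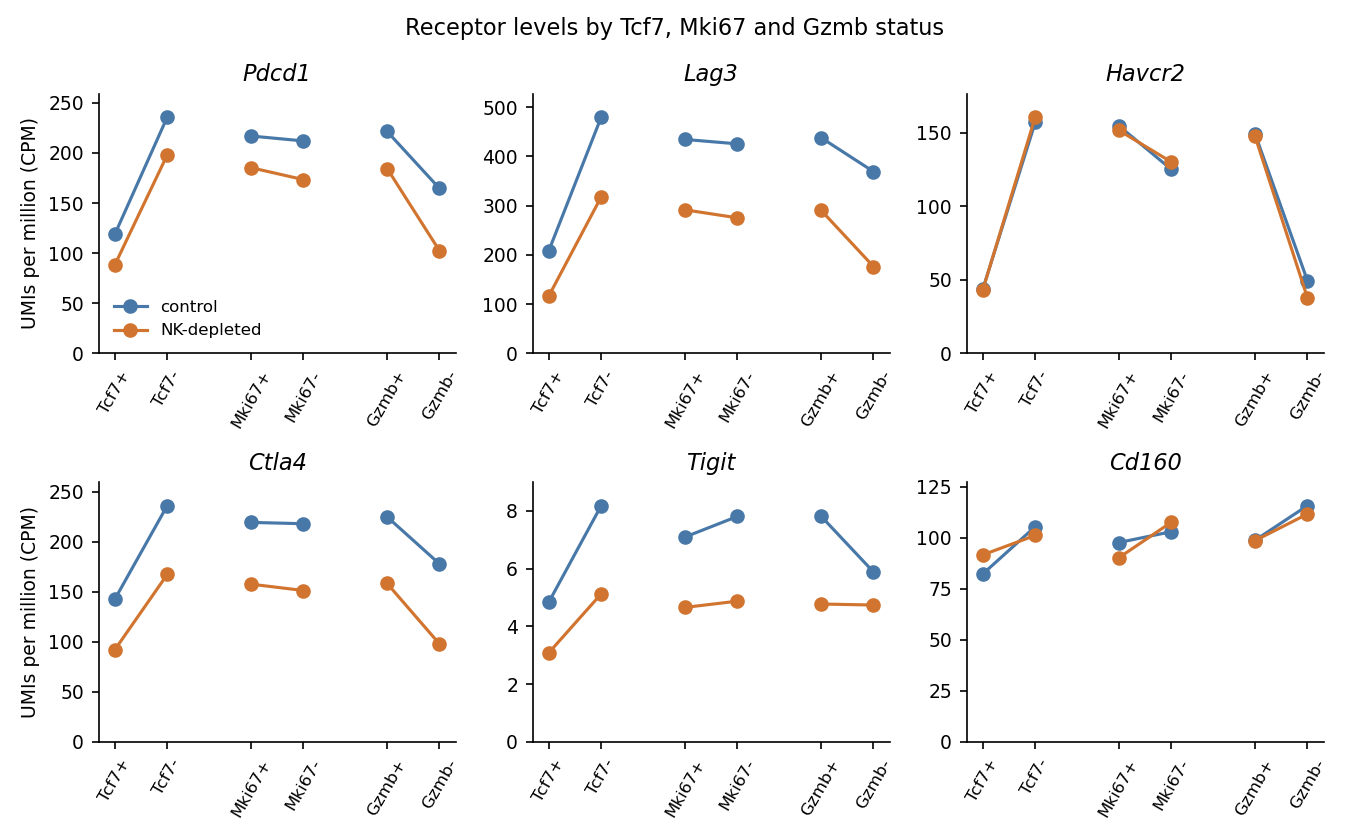
Level of each receptor (CPM) in cells with and without a UMI of Tcf7, Mki67 or Gzmb at equal depth, for control and NK-depleted cells, 1 panel per receptor with its own axis from 0. Lines join the 2 classes of a marker. The Tcf7 lines climb from positive to negative cells in every panel, least for Cd160, and the Mki67 lines are nearly level. The Havcr2 lines of the libraries lie close except in Gzmb-negative cells, at 49.6 (control) and 37.9 CPM (NK-depleted).

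The share of Tcf7-positive cells was lower with each further receptor, up to 5 receptors in the control and 4 in the NK-depleted library. Of control cells with 0 receptors 58.3% had a Tcf7 UMI, of those with 1 receptor 33.2%, with 2 receptors 18.9%, with 3 receptors 11.4%, with 4 receptors 7.58% and with 5 receptors 3.61%. The NK-depleted shares were 48.1%, 31.9%, 20.2%, 8.60%, 4.39% and 4.89%, with the last pair of classes within each other's intervals. Mki67 went from 8.97% of control cells with 0 receptors to 31.1% with 5, and from 19.1% to 44.4% with 3 receptors and 36.8% with 5 in the NK-depleted library. Gzmb went from 56.6% to 90.0% in the control library and from 79.8% to 96.4% in the NK-depleted library. Median depth before thinning went from 9956 UMIs in control cells with 0 receptors to 16258.5 with 5, and its part in these shares was not tested.

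**Figure D5:**
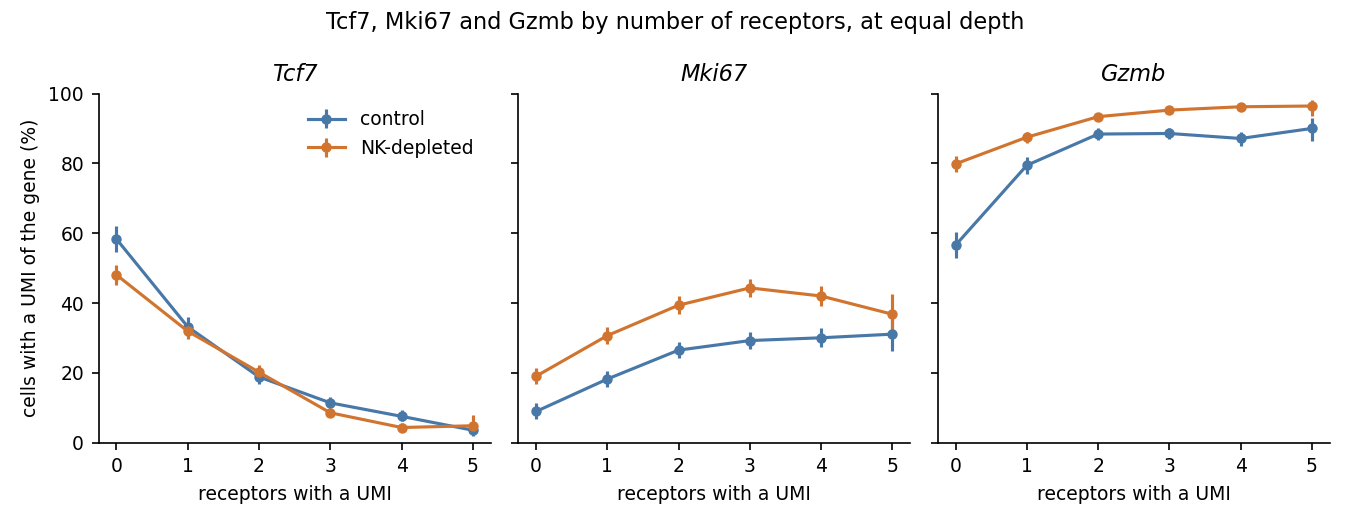
Share of cells with a UMI of Tcf7, Mki67 or Gzmb (percent, with exact 95% binomial intervals) by the number of receptors with a UMI, from 0 to 5, at 5500 UMIs per cell. Tcf7 goes down from 58.3% to 3.61% in the control library, while the Mki67 and Gzmb lines of the NK-depleted library lie above those of the control library in each class.

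Differences between the libraries were also seen within the classes. The number of receptors lower past the limit in the NK-depleted library was 4 in Tcf7-positive cells (12.2% of all genes), 3 in Tcf7-negative cells (12.7%), 3 in Mki67-positive cells (9.26%), 3 in Mki67-negative cells (14%), 3 in Gzmb-positive cells (13%) and 4 in Gzmb-negative cells (11.7%). Tigit, below the 10 CPM minimum of these shares, was among them in each class except Gzmb-negative cells, where its ratio was 0.805. Lag3 went from 209 to 117 CPM between the libraries in Tcf7-positive cells, a ratio of 0.560 (0.532 to 0.588), and from 480 to 318 CPM in Tcf7-negative cells, a ratio of 0.663 (0.653 to 0.673). In Gzmb-negative cells, 1049 in the control and 674 in the NK-depleted library, its ratio was 0.478 (0.451 to 0.507). Havcr2 was also lower past the limit there, at 49.6 and 37.9 CPM, a ratio of 0.765 (0.667 to 0.875). Under TMM scaling that Havcr2 ratio was 0.811, within the limit.

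Splitting the cells by all 3 markers at once gave 8 classes of 41 to 3229 cells. Here lower means any ratio below 1, not past the limit. The median log2 ratio over all genes was also below 0 in each of the 8 classes, from -0.12 to -0.04. The share of all genes below 1 in as many classes was not read, so these counts have no background beside them. Pdcd1 was lower in the NK-depleted library in 8 of 8 classes, with ratios from 0.503 to 0.909, and Ctla4 in 8 of 8, from 0.377 to 0.873. Lag3 was lower in 8 of 8 classes, from 0.213 to 0.702. Its lowest ratio came from the smallest class, Tcf7-positive, Mki67-positive and Gzmb-negative, with 41 and 42 cells, and the next lowest was 0.424. Lag3 was highest, at 592 CPM, in control cells negative for all 3 markers, where the NK-depleted level was 251 CPM. In the largest class, Tcf7-negative, Mki67-negative and Gzmb-positive, it stood at 488 and 334 CPM. Havcr2 was lower in the NK-depleted library in 6 of 8 classes, Tigit in 7 (with 2 and 0 UMIs in the smallest class) and Cd160 in 3, with Cd160 ratios between 0.842 and 1.19. Some of these Havcr2 ratios had intervals that hold 1, such as 0.968 (0.831 to 1.13) in cells positive for all 3 markers. The Havcr2 classes ranged in the control library from 10.8 CPM, in cells with Tcf7 and neither Mki67 nor Gzmb, to 172 CPM, in cells with Mki67 and Gzmb and no Tcf7.

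NK-depleted levels were also averaged over the 8 classes at the control library's mix. The ratio was then 0.816 for Pdcd1, 0.648 for Lag3, 0.691 for Ctla4 and 0.634 for Tigit, against 0.837, 0.660, 0.706 and 0.632 at each library's own mix in the same cells. Havcr2 went from 1.03 to 0.983 and Cd160 from 0.984 to 1.02, so neither kept its side of 1. The classes rest on single UMIs at equal depth, which do not separate expressing from other cells in full.

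Levels of the receptors over the 8 classes in both libraries, 16 points, were compared with those of 5131 genes of at least 20 CPM. Points of a library share its depth and scaling, so the Pearson r on log2(CPM + 1) is a description. Among the receptors, Pdcd1, Lag3 and Ctla4 were most alike, with r of 0.95 for Pdcd1 and Lag3, 0.93 for Pdcd1 and Ctla4 and 0.94 for Lag3 and Ctla4. Havcr2 had r of 0.79 with Pdcd1 and 0.80 with Lag3 and Tigit. Cd160 had r of 0.26 to 0.58 with the other receptors. The genes most like Pdcd1 were Bhlhe40 (0.97), a transcription factor gene, Klrk1 (0.97), encoding the activating receptor NKG2D, and Hif1a (0.97), encoding the oxygen-regulated factor. Lag3 was most like Bcl2a1b, a survival gene, Ndfip1, encoding an adaptor of ubiquitin ligases, and Dusp4, encoding a MAP kinase phosphatase, each with r of 0.98. Havcr2 was most like P4ha1 (0.97), encoding a prolyl hydroxylase subunit, Ptpn9 (0.97), a phosphatase gene, and Slc2a3 (0.96), encoding a glucose transporter. Ctla4 was most like Gatad2a (0.96), Rap1a (0.96) and Bhlhe40 (0.95). Tigit was most like Rpp25l, Tmed9 and Ehd1, with r of 0.91 to 0.92. Its counts were as low as 2 and 0 UMIs in the smallest control and NK-depleted class. All r values with Tigit thus rest in part on few molecules and are not read closely. Cd160 had no close match, with r of 0.74 for Arl3, Trappc5 and Klrd1, the last of these encoding the NK cell receptor CD94.

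The ligands of the receptors and the rest of their pathway were read from lists of genes, counted over members of at least 10 CPM in 1 library. The counts of each list stand beside 11.9% of all genes lower and 6.27% higher, or 7.07% and 10.6% under TMM scaling. Of 7 ligands measured, 2 were lower past the limit in the NK-depleted library, 0 higher and 5 between, and the counts were the same under TMM scaling. Their median log2 ratio was -0.16. Cd274, encoding the PD-1 ligand PD-L1, stood at 64.8 and 40.9 CPM, and Cd86, encoding a ligand of CTLA-4 and CD28, at 55.1 and 28.3 CPM for control and NK-depleted cells. Pvr, the TIGIT ligand, stood at 22.0 and 18.4 CPM, and Hmgb1, a chromatin protein that TIM-3 can bind, at 1015 and 1165 CPM. Cd86 and Cd274 are also genes of myeloid cells, and the macrophage markers summed to 34.6 and 25.1 CPM with all 8 above 0, and their part in these levels was not tested.

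Of 9 other inhibitory receptors measured, 3 were lower (against 11.9% of all genes), 2 higher (6.27%) and 4 between. Under TMM scaling 1 of the 9, Btla, was lower. Their median log2 ratio was -0.09. Btla, which shares its ligand with CD160, stood at 12.3 and 7.66 CPM, Cd5, a damper of the T cell receptor, at 115 and 88.0 CPM and Cd101 at 17.8 and 13.8 CPM. Lilrb4a was higher in the NK-depleted library, at 50.4 and 64.5 CPM. Of 8 activating counterparts, 3 were lower, 0 higher and 5 between, and under TMM scaling 2 were lower (Cd28 and Cd27) and 1 higher. Their median log2 ratio was -0.23. Cd28, the rival of CTLA-4, stood at 249 and 180 CPM, Cd226, the rival of TIGIT, at 97.2 and 76.7 CPM and Cd27, a costimulatory receptor, at 182 and 132 CPM. Icos, a relative of CD28, at 330.5 and 269 CPM, did not pass the limit.

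Of 16 phosphatases and adaptors that act below the receptors, all 16 lay between the limits, with a median log2 ratio of -0.07. Ptpn11, encoding SHP-2, stood at 52.9 and 43.0 CPM. Ptpn22, encoding a phosphatase that damps receptor signalling, stood at 345 and 282 CPM, and the adaptor genes Sh2d1a at 94.9 and 77.1 CPM and Sh2d2a at 525 and 437 CPM. Of 10 genes for trafficking and turnover of the receptors, 2 were lower and 8 between, with a median of -0.22, and 1 was lower under TMM scaling (Cmtm6). The 2 were Cmtm6, which keeps PD-L1 on the cell surface, at 37.6 and 27.1 CPM, and Lrba, which keeps CTLA-4 from being degraded, at 43.8 and 34.1 CPM. Adam10, encoding a protease that sheds LAG-3, stood at 60.3 and 49.7 CPM, and Fbxo38, encoding a ubiquitin ligase subunit that targets PD-1, at 18.8 and 15.2 CPM, both within the limits.

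Of 15 transcription factors of the exhaustion programme measured, 8 were lower (against 11.9% of all genes), 2 higher (6.27%) and 5 between. Under TMM scaling 4 were lower, Tox, Nr4a2, Nfatc1 and Prdm1, against 7.07% of all genes. Their median log2 ratio was -0.33. Tox, which sustains exhausted cells, stood at 74.1 and 24.7 CPM, a ratio of 0.333 (0.319 to 0.347). Nr4a2, a nuclear receptor gene induced by T cell receptor signals, stood at 156 and 90.0 CPM and Nfatc1, encoding an NFAT factor, at 114 and 79.8 CPM. Ikzf2 was higher in the NK-depleted library, at 119 and 174 CPM. Of 8 progenitor genes measured, 1 was lower. It was Slamf6, a surface marker of progenitor exhausted cells, at 37.6 and 20.6 CPM. Ccr7, a chemokine receptor gene of naive and memory cells, stood at 65.6 and 53.9 CPM and Xcl1, a chemokine gene, at 93.4 and 108 CPM.

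Cells with 4 or more receptors were also set against cells with 0 in each library, over genes of at least 50 CPM. The gene choice and the classes come from the same cells, so the values are descriptions. In the control library 33.8% of genes were higher past the limit with 4 or more receptors and 15.1% lower, and in the NK-depleted library 29.3% were higher and 11% lower. Of 2733 genes compared in both libraries, 727 were higher and 223 lower in both. Ccl3, a chemokine gene, stood at 587 CPM with 4 or more receptors and 15.8 CPM with 0 in the control library, and at 344 and 19.4 CPM in NK-depleted cells. Rgs16, a regulator of G protein signalling, stood at 471 and 24.3 CPM, and at 341 and 32.1 CPM. Tnfrsf4, encoding the costimulatory receptor OX40, stood at 163 and 7.65 CPM in control cells and at 158 and 20.3 CPM in NK-depleted cells. The other leading genes were Nrgn, Serpine2, Csf1, Nrp1 and Gzme, the last at 60.7 and 6.56 CPM in the control library and 136 and 9.01 CPM in NK-depleted cells. In the other direction, S1pr1, encoding the receptor for exit from tissue, stood at 9.75 CPM with 4 or more receptors and 158 CPM with 0 in the control library, and at 9.31 and 83.0 CPM in NK-depleted cells. Tcf7, Treml2, Klf3, Cmah, Klf2 and Dapl1 were also among the genes with the smallest ratios. Cells with 0 receptors thus had the higher levels of S1pr1, Tcf7 and Klf2, and cells with 4 or more had the higher levels of Ccl3, Rgs16 and Tnfrsf4. Median depth and the share of mitochondrial UMIs also differed between these classes, at 9956 UMIs and 3.13% in control cells with 0 receptors and 16124 UMIs and 2.41% in those with 4, and their part was not tested.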

How the data were processed

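The deposited matrices hold whole-number UMI counts, which the authors made with Cell Ranger 6.1.2, as stated per the file headers. The submitters' processing notes also name the mm10 build and Seurat 4.0.6. The CD8+ T cells of the rule made up 96.3% and 97.7% of the cells kept, and held 106462391 control and 125332343 NK-depleted UMIs. Counts were summed per library and class and given as CPM. Ratios carry exact conditional binomial 95% intervals and shares exact Clopper-Pearson intervals. These cover counting error only. Differences were counted at a ratio of 0.8 or less, or its inverse, among genes of at least 10 CPM in 1 library. For shares, each cell was thinned to 5500 UMIs, which left out 655 and 780 cells. That depth was set from the smaller of the libraries' 10th percentiles of depth, 5593.7 UMIs in the NK-depleted library. No doublet caller was used, and an alternative left out the 8% of cells with the most UMIs. Classes by Tcf7, Mki67 and Gzmb came from thinned counts and their levels from full counts.

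Named genes are the 6 receptors, for each list the 4 or fewer members that differed most at 10 CPM or more, the 3 genes most like each receptor, and 8 genes in each direction between cells with 4 or more receptors and with 0. Further members are named for comparison. The result for 1 of the named genes is not reported here. The receptors, lists and tests were chosen with earlier results of these data known. Promoters came from RefSeq. Python 3.11.15 with numpy 2.4.6, scipy 1.17.1 and pandas 2.3.3 was used, and edgeR 4.0.16 in R 4.3.3 gave the TMM factors. The scripts were tested on simulated data. Alternatives were other cell filters, scalings, depths, seeds and status limits.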

Additional observations from a re-analysis of the deposited data

Results flagged for a closer look

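Barcodes that met the T cell rule but were left out for a mitochondrial share of 10% or more numbered 120 in the control and 676 in the NK-depleted library, and no comparison above uses them. In them Cd160 had 7 control UMIs (21.1 CPM) and 142 NK-depleted UMIs (68.3 CPM), a ratio of 3.23 (interval 1.53 to 8.19), while its ratio in the population was 0.988. The other 5 receptors had ratios of 0.908 for Lag3, 1.16 for Pdcd1, 1.21 for Havcr2, 1.07 for Ctla4 and 0.957 for Tigit there, with intervals that hold 1.

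Cd160 levels lay on opposite sides of 1 in paired classes, with counting intervals that leave out 1. The ratio of NK-depleted over control was 1.11 (1.04 to 1.19) in Tcf7-positive cells and 0.959 (0.932 to 0.987) in Tcf7-negative cells. It was 0.924 (0.886 to 0.964) in Mki67-positive cells and 1.04 (1.01 to 1.08) in Mki67-negative cells. Under TMM scaling the Cd160 ratio in Tcf7-negative cells was 1.02, the same side of 1 as in Tcf7-positive cells, while the Mki67 classes were at 0.980 and 1.11. Havcr2 also lay on both sides of 1, at 0.988 (0.899 to 1.09) and 1.02 (0.9999 to 1.05) in Tcf7-positive and negative cells and at 0.980 (0.948 to 1.01) and 1.04 (1.01 to 1.07) in Mki67-positive and negative cells, with an interval that holds 1 in 3 of these 4 classes. Under TMM scaling these 4 Havcr2 ratios were above 1. With 1 library per group, these differences between classes were not tested.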

How the results depend on the processing

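The count of receptors lower past the limit (a ratio of 0.8) in the NK-depleted library was 3 under every alternative run. The median log2 ratio over the 6 receptors, -0.38, was -0.32 without cells holding 2 or more UMIs of other cell types' markers (which left 3814 and 4566 thinned cells), -0.29 with TMM factors, -0.28 with median-of-ratios factors, -0.31 with the mean over cells and -0.35 with thinned counts. The difference in mean number of receptors, -0.27, was -0.21 without the cells with other markers, -0.21 at 3000 UMIs and -0.17 without thinning. The difference in cells with 4 or more receptors, -3.91 percentage points, was -2.21 without the cells with other markers, -2.05 at 3000 UMIs, -6.56 at 8000 UMIs, -1.48 without thinning and -1.52 with 2 UMIs as the limit. The receptors higher with Mki67 numbered 1 in place of 0 in the control library without the cells with other markers, with unthinned status and with status at 2 UMIs, and 1 in the NK-depleted library with unthinned status. Those higher with Gzmb in the control library numbered 2 in place of 4 without the cells with other markers, with status at 2 UMIs and with Gzmb at 5 UMIs. That count was also smaller with a mitochondrial share under 5%, with at least 2 UMIs of Cd3 and of Cd8 genes and without barcodes in both libraries. It was larger with unthinned status, where Lag3 passed the limit too. The Cd160 log2 ratio between Mki67-positive and negative control cells, -0.08, was 0.0863 with unthinned status. The cause was not tested in any of these. Of the remaining values for single receptors, 137 moved beyond their counting interval and 228 did not. Scaling of the gene lists was an alternative chosen after seeing the data, and with TMM or median-of-ratios factors 4 in place of 8 transcription factors and 1 in place of 3 other inhibitory receptors were lower.

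No paired analysis was possible because each group has 1 library and the replicate numbers come only from accession order. No library could be left out for the same reason. A change of depth also changes which cells enter. Tigit, with 802 and 601 UMIs, has too few molecules for its classes to be read closely. The share of all genes lower past the limit was 25.6% in place of 11.9% with no minimum beyond 1 UMI in each library. Leaving out the naive reference cells, an alternative chosen after seeing the data, gave a difference in mean number of -0.27.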
